A study of Mus musculus with 22 samples.

Results

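The 30 genes described here mark the oligodendrocyte lineage and the myelin it makes. They were taken by name from a fixed list and are 30 of the 55409 genes in the count table of the PWS-cr mice and 30 of the 55406 genes in that of the PWS-IC mice. They fall into 3 classes by their known roles. A class of 8 genes holds lineage regulators and precursor genes (*Olig1*, *Olig2*, *Sox10*, *Sox8*, *Nkx2-2*, *Pdgfra*, *Cspg4* and *Erbb3*), a class of 10 holds genes of differentiating cells (*Gpr17*, *Bcas1*, *Enpp6*, *Myrf*, *Neu4*, *Tmem88b*, *Nkx6-2*, *Sirt2*, *Tppp* and *Tspan2*), and a class of 12 holds genes of myelin and its synthesis (*Mbp*, *Mag*, *Mog*, *Mobp*, *Cnp*, *Cldn11*, *Mal*, *Opalin*, *Ugt8a*, *Gjc3*, *Fa2h* and *Aspa*).

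Oligodendrocytes are the glia that wrap central axons in myelin. Their precursors carry the PDGF receptor alpha (*Pdgfra*) and the NG2 proteoglycan (*Cspg4*), pass through a short committed stage marked by *Gpr17*, *Bcas1* and *Enpp6*, and then switch on the genes of the myelin sheath under the transcription factors *Sox10* and *Myrf*. Myelination begins in the spinal cord and hindbrain and reaches the forebrain later, so that a mouse brain at birth holds mostly precursors and few myelinating cells.

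RNA was sequenced from whole brains of newborn pups (postnatal day 0). The PWS-cr mutants (HET PWS-Cr in the labels, strain B6(Cg)-Snord116tm1Uta/J) carry a paternally inherited deletion of the Prader-Willi critical interval with the *Snord116* small nucleolar RNAs, and the PWS-IC mutants (HET PWS-ICdel) carry a deletion of the imprinting centre on the paternal chromosome. Controls were wild-type littermates of each line. The PWS-cr series had 6 mutant and 5 wild-type libraries with values (4 litters), and the PWS-IC series 4 mutant and 5 wild-type libraries (2 litters). All 4 libraries labelled PWS-IC are labelled female, and of the 5 wild-type libraries beside them 1_1_IC alone is. Each library is named by litter, pup and line, so that 1_1_IC is pup 1 of litter 1 in the PWS-IC series.

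Total counts ranged from 45798407 to 62103143 over the 20 libraries. Of the libraries labelled PWS-IC, 1_3_IC had 18116 counts of *Snrpn*, a gene that the imprinting centre deletion silences, against 255 to 425 in the others. The library labelled wild type 1_7_IC had 343 counts of *Snrpn*, against 12281 to 16556 in the other wild types, and *Xist* and *Eif2s3y* in both libraries were those of the other sex than the label gives. Both were kept in their labelled groups, and the comparisons of PWS-IC with wild type are also given over the 7 libraries without them. Wild-type levels, coefficients of variation and correlations with *Mbp* include both. Of the 30 genes, 29 had at least 10 counts in at least 4 libraries of each series and were tested. *Opalin*, a glycoprotein of mature myelin, had 0 to 4 counts in the PWS-cr series and 0 to 3 in the PWS-IC series and was not tested.

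The upstream sequences of *Mobp*, *Mag* and *Mog* are shown because *Mobp* and *Mag* followed the other myelin genes across libraries and *Mog* ran against them (each is given 5′ to 3′ on the gene's strand). They are from RefSeq on GRCm38.p6, the assembly behind mm10, and each is the first 200 bases of a window that runs from 250 bases before to 50 bases after the annotated start. Capitals mark the SOX core motif ACAAAG or its reverse complement CTTTGT, the letters that factors such as Sox10 prefer.
Mobp, chr9:120149492-120149691, plus strand: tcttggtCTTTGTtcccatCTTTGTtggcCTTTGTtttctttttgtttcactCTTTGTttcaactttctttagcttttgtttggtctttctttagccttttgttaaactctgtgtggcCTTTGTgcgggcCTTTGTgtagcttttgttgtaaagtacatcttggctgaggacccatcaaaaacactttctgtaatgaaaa
Mag, chr7:30914914-30915113, minus strand: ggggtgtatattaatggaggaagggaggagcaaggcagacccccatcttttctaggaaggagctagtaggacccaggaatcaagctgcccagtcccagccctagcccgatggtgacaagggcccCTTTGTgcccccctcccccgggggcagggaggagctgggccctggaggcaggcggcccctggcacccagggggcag
Mog, chr17:37023449-37023648, minus strand: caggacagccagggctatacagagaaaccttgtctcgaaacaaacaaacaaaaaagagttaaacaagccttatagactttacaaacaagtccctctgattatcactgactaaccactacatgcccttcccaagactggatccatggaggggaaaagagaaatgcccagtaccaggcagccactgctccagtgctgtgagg

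The *Mobp* window held 6 matches, all in the CTTTGT form. Of 27025 mouse promoter windows of that length, 1 held 6 or more, and it was that of *Mobp*. Its window was 39.0% T, against a median of 23.0% over all windows, and 259 windows had at least as much. The *Mag* window held 1 match and the *Mog* window 0. Windows were found for 22 of the 30 genes, and 4 of these held a match (*Cnp*, *Mag*, *Mobp* and, with 2 matches, *Opalin*), while 18.7% of all windows did. The E-box CAGCTG stood in the windows of 2 of the 22 genes (*Aspa* and *Opalin*) and in 16.1% of all windows, and CATATG in 1 (*Tspan2*) and 3.91%. Both strands were searched, and CAGCTG and CATATG read the same on both. These are matches of letters and not binding sites.

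Levels of genes were compared with each other as TPM, a share of all transcripts that allows for gene length. In wild-type pups *Olig1* and *Olig2*, the basic helix-loop-helix factors that set up the lineage, had medians of 147.5 and 60.5 TPM in the PWS-cr series and 117.1 and 46.1 TPM in the PWS-IC series. *Pdgfra* had medians of 42.7 and 37.7 TPM in these wild types, and *Sox10* 21.5 and 20.2 TPM. The precursor class was not above the myelin class throughout: *Erbb3* had 1.40 and 1.44 TPM. Of the differentiating class, *Sirt2*, a deacetylase also present in neurons, stood at 73.3 and 61.1 TPM, *Tppp*, a microtubule-binding protein, at 35.2 and 31.2 TPM, and *Gpr17*, the receptor of committed precursors, at 32.01 and 28.04 TPM. *Enpp6*, a choline phosphodiesterase of newly formed oligodendrocytes, had 0.80 and 0.73 TPM.

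Myelin genes spread over a wide range of wild-type levels. *Mog*, a surface protein of the outer sheath, had a median of 45.3 TPM in the PWS-cr and 44.5 TPM in the PWS-IC wild types, above *Mbp*, the basic protein that compacts myelin, with 25.4 and 24.2 TPM. Count tables do not show which part of *Mog* the reads cover, so whether its level is that of the full myelin transcript could not be examined. The ranges did not overlap in the PWS-cr wild types (39.7 to 55.3 TPM for *Mog* and 21.1 to 37.9 TPM for *Mbp*) and overlapped in the PWS-IC wild types (29.8 to 51.5 and 19.2 to 44.0 TPM). *Cnp*, a phosphodiesterase of non-compact myelin, had 36.1 and 38.6 TPM, and *Cldn11*, the tight-junction claudin of myelin, 30.8 and 36.8 TPM. *Mag*, an adhesion protein of the innermost sheath, had 3.40 and 3.73 TPM, and *Mobp*, a late basic protein of compact myelin, 0.52 and 0.49 TPM. In the order of the medians, *Olig1*, *Sirt2* and *Olig2* had ranges apart from each other in both series, *Olig2* from *Mog* and *Cspg4* from *Ugt8a* in the PWS-cr wild types, and *Nkx2-2* from *Cspg4* in the PWS-IC wild types, and all other neighbours overlapped.

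**Figure D1:**
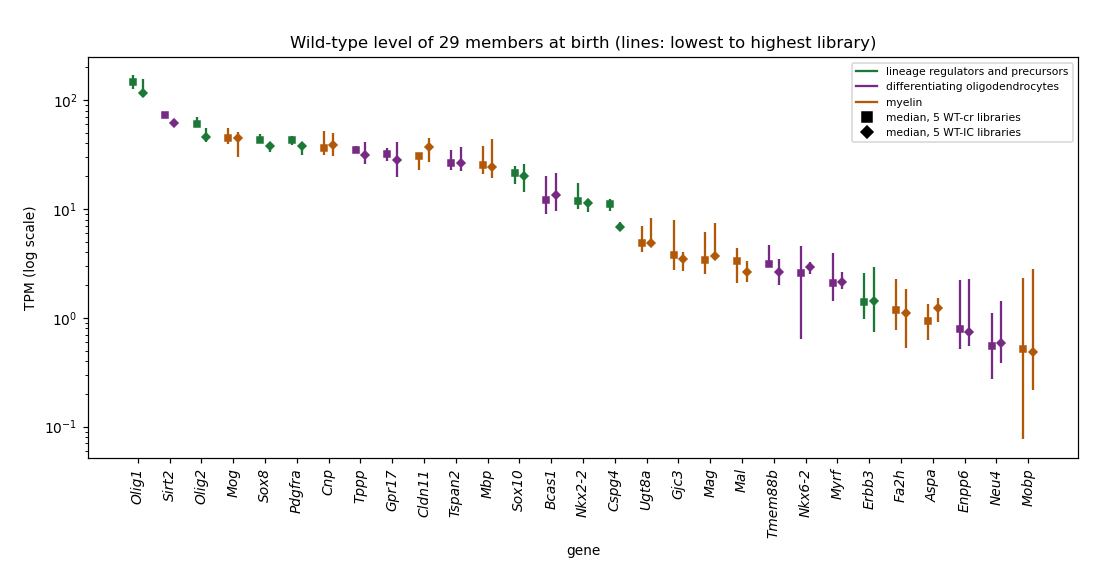
TPM on a log scale of the 29 tested genes in wild-type pups, ordered by the median of the 5 WT-cr libraries; squares are medians of WT-cr, diamonds medians of the 5 WT-IC libraries, lines run from the lowest to the highest library and colours give the class. *Olig1* is highest (147.5 and 117.1 TPM) and *Mobp* lowest (0.52 and 0.49 TPM).

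The first comparison asks whether loss of the critical interval goes with other levels of these genes. No member was called in PWS-cr mice at an adjusted p under 0.05 over all genes (edgeR's quasi-likelihood test with litter in the model), where 0.0135% of all 22172 genes were. DESeq2 called none of the members either, and 7 of all 22172 genes. It gave 2 members an unadjusted p under 0.05, beside 181 of all genes. Log2 fold changes were above 0 in 25 of the 29 genes with a median of 0.20, while 51.9% of all genes were above 0 with a median of 0.0034. By class, 5 of 8 precursor genes were above 0 (median 0.03), 10 of 10 differentiating genes (median 0.24) and 10 of 11 myelin genes (median 0.26), and the difference between classes was not tested. In whole-brain libraries a different number of cells of the lineage and a different amount of RNA per cell cannot be told apart, in either direction. Leaving out single libraries gave 21 to 25 members above 0 and medians from 0.12 to 0.27. The lowest count came without 3_5_Cr and the lowest median without 1_5_Cr.

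Precursor genes lay close together in both genotypes of the PWS-cr series. *Pdgfra* had 98.4 CPM (counts scaled to the TMM library size) in the lowest, 104.1 in the median and 120.7 in the highest PWS-cr library, and 104.9, 96.4, 108.6, 104.9 and 118.3 CPM in the wild-type libraries 1_3_Cr, 3_1_Cr, 3_6_Cr, 4_1_Cr and 4_2_Cr. The groups covered the same range, and its log2 fold change was 0.06 (SE 0.07). *Olig2* was at -0.03 (SE 0.10), *Olig1* at 0.01 (SE 0.10), *Cspg4* at 0.08 (SE 0.08), *Sox8* at -0.08 (SE 0.07) and *Nkx2-2* at -0.17 (SE 0.16). *Sox10* had the smallest p of the class, at 0.20 (SE 0.11, edgeR adjusted p = 0.9999). *Erbb3*, the neuregulin receptor that precursors share with Schwann cells, stood apart: it had 297 counts in 1_1_Cr, 6.51 CPM, and 1.47 to 3.78 CPM in the wild-type libraries, with a log2 fold change of 0.57 (SE 0.37).

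Differentiating genes gave larger values and larger errors. *Bcas1*, which marks early myelinating cells, had 6.75 CPM in the lowest, 13.9 in the median and 21.6 in the highest PWS-cr library, and 8.95, 8.54, 12.5, 11.7 and 19.0 CPM in the wild types in the order above. Its log2 fold change was 0.42 (SE 0.34). *Enpp6* had 0.57, 1.93 and 3.42 CPM as lowest, median and highest value in PWS-cr and 0.96, 0.82, 1.24, 1.77 and 3.58 CPM in the wild types, with a log2 fold change of 0.83 (SE 0.47). In both genes the wild type 4_2_Cr lay among the highest PWS-cr libraries and 1_1_Cr and 1_2_Cr among the lowest of all. *Myrf*, the factor that turns on myelin genes, had a log2 fold change of 0.40 (SE 0.23), *Nkx6-2*, a homeobox factor of myelinating cells, 0.79 (SE 0.48), and *Gpr17* 0.17 (SE 0.17). The other 5 of the class were *Neu4*, a sialidase (0.29, SE 0.38), *Tspan2*, a tetraspanin (0.19, SE 0.11), *Sirt2* (0.07, SE 0.04), *Tmem88b* (0.04, SE 0.18) and *Tppp* (0.01, SE 0.07).

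*Aspa*, the enzyme that splits N-acetylaspartate for myelin lipid, was the 1 member with an unadjusted p under 0.05, a share of 1 in 29 where 2.07% of all genes passed. It had 1.72, 1.91 and 2.57 CPM as lowest, median and highest value in PWS-cr and 1.35, 0.97, 1.57, 0.95 and 2.00 CPM in the wild types. The log2 fold change was 0.64 (SE 0.23, edgeR unadjusted p = 0.0173, adjusted p = 0.9999), and the wild type 4_2_Cr lay within the PWS-cr range. No member had every PWS-cr library above or below every wild-type library, against 0.0812% of all genes higher and 0.0857% lower.

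The structural myelin genes did not separate by genotype either. *Mbp* had 41.7, 55.8 and 84.1 CPM as lowest, median and highest value in PWS-cr and 43.8, 44.7, 56.2, 55.1 and 79.9 CPM in the wild types, a log2 fold change of 0.26 (SE 0.21). *Mag* had 2.47, 3.57 and 7.08 CPM in PWS-cr and 2.55, 2.59, 3.37, 4.16 and 6.19 CPM in the wild types, a log2 fold change of 0.48 (SE 0.29). *Mobp* had 1 count in the lowest and 248 in the highest PWS-cr library and 7 to 191 in the wild types. Its log2 fold change of 1.22 was the largest of the members and had the largest error (SE 0.98). Without 1_5_Cr it was 0.45, and those of *Enpp6* and *Mag* were then 0.52 and 0.29. *Mog* alone of the tested myelin genes lay below 0, at -0.05 (SE 0.08). The rest of the class lay between 0.12 for *Ugt8a* (SE 0.20) and 0.42 for *Gjc3* (SE 0.36), with *Cnp* at 0.20 (SE 0.14), *Cldn11* at 0.26 (SE 0.20), *Mal* at 0.17 (SE 0.19) and *Fa2h* at 0.31 (SE 0.37).

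**Figure D2:**
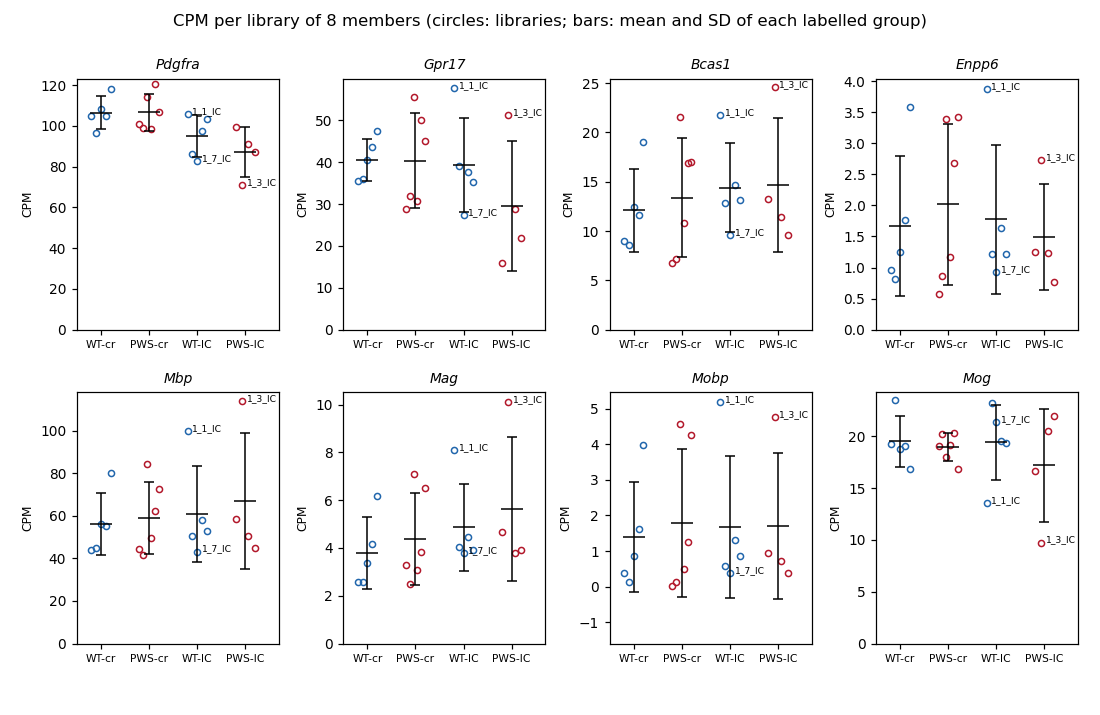
CPM of 8 members in each library; circles are libraries (blue wild type, red mutant, by label), black bars the mean and SD of each labelled group of 5, 6, 5 and 4 libraries. Groups overlap in every panel, and 1_1_IC and 1_3_IC stand above the other PWS-IC series libraries in *Mbp*, *Mag* and *Mobp* and below them in *Mog*.

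Within the litters that held both genotypes the leaning was present but uneven. On a log2(CPM + 0.1) scale, 18 of 29 members were higher in the PWS-cr libraries of litter 1 (median difference 0.05, 3 against 1 library), 25 of 29 in litter 3 (0.31, 1 against 2 libraries) and 22 of 29 in litter 4 (0.13, 1 against 2 libraries). Among all genes tested, 48.95%, 52.1% and 51.0% were higher in these litters. Litter 2 held no wild-type library with values. Without litter in the model 20 of 29 members were above 0 with a median of 0.07.

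A caudal tissue measure moved with the members in the PWS-cr series. It was taken from 12 Hox genes of the caudal hindbrain and spinal cord (*Hoxb8* among them). These summed to 0.526, 1.09, 4.83, 75.9, 79.2 and 97.3 CPM in the PWS-cr libraries, in rising order. In the wild types they summed to 1.06, 2.16, 29.4, 32.1 and 32.6 CPM. Their mean log2 CPM averaged -0.88 (SD 2.4) in PWS-cr and -1.16 (SD 1.7) in the wild types. In the fit with litter 10 of the 12 had a log2 fold change above 0, with a median of 2.29. *Hoxb8* had 1 to 290 counts in PWS-cr and 1 to 80 in the wild types (log2 fold change 3.24, SE 0.96, edgeR adjusted p = 0.9999). With the mean level of these Hox genes as a further term in the model, 15 of 29 members were above 0 and the median was 0.01. Their part in the members' values was otherwise not tested.

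The second comparison asks the same of the imprinting centre deletion. With the 9 libraries as labelled, no member was called in PWS-IC, where 0.0% of 22367 genes were called by edgeR, and no member had an unadjusted p under 0.05, where 8.23% of all genes did. DESeq2 gave the same 2 counts of 0 for the members, beside 1 call and 2111 such unadjusted p among all genes. Log2 fold changes were above 0 in 11 of 29 members with a median of -0.07, against 50.7% of all genes with a median of 0.0037. The classes gave 1 of 8 precursor genes above 0 (median -0.07), 3 of 10 differentiating genes (median -0.15) and 7 of 11 myelin genes (median 0.01). No member had groups that did not overlap, against 1.15% of all genes higher and 1.14% lower in every PWS-IC library.

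A single library stood apart in each labelled group. *Mbp* had 114.0, 58.4, 50.4 and 44.7 CPM in the libraries labelled PWS-IC 1_3_IC, 1_10_IC, 4_4_IC and 4_5_IC. It had 99.95, 50.4, 43.2, 57.8 and 52.9 CPM in those labelled wild type, 1_1_IC, 1_5_IC, 1_7_IC, 4_3_IC and 4_6_IC. One library in each group was near 100 CPM or above and the other 7 lay between 43.2 and 58.4 CPM. The high libraries 1_3_IC and 1_1_IC came from the same litter. Neither had the low *Snrpn* of the imprinting centre deletion (18116 counts in 1_3_IC and 16556 in 1_1_IC), although 1_3_IC is labelled PWS-IC. *Mobp* had 4.78, 0.94, 0.72 and 0.39 CPM in the libraries labelled PWS-IC and 5.18, 0.58, 0.39, 1.31 and 0.86 CPM in the wild types, with the same libraries highest. Its log2 fold change was -0.10 (SE 0.75).

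*Mal*, a proteolipid of myelin and of epithelia, had the smallest p among the members in the 9 libraries, at 0.34 on the log2 scale (SE 0.18, edgeR adjusted p = 0.565). It had 2.69, 2.148, 2.915 and 2.454 CPM in the libraries labelled PWS-IC and 2.445, 1.579, 1.647, 1.875 and 2.387 CPM in the wild types, so that 1_10_IC lay inside the wild-type range. *Tppp* was at -0.27 (SE 0.14) and *Gpr17* at -0.40 (SE 0.31), with groups that overlapped in both.

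Over the 7 libraries without 1_3_IC and 1_7_IC, which leaves 3 PWS-IC and 4 wild-type libraries, the members leaned to lower values. No member was called there, where 0.242% of 21913 genes were, but 8 had an unadjusted p under 0.05, all lower, against 12.8% of all genes. Log2 fold changes were above 0 in 5 of 29 members, with a median of -0.27, against 50.3% of all genes. The 8 were 4 precursor genes (*Sox8*, *Sox10*, *Nkx2-2* and *Olig2*) and 4 differentiating genes (*Gpr17*, *Tppp*, *Bcas1* and *Neu4*), with no myelin gene among them.

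*Gpr17* gave the smallest p of these. It had 15.9, 28.8 and 22.0 CPM in 1_10_IC, 4_4_IC and 4_5_IC and 57.8, 39.0, 37.6 and 35.2 CPM in the wild-type libraries 1_1_IC, 1_5_IC, 4_3_IC and 4_6_IC, so that the groups did not overlap. The log2 fold change was -0.92 (SE 0.22, edgeR unadjusted p = 0.00132, adjusted p = 0.188). The libraries left out had 51.3 CPM (1_3_IC, labelled PWS-IC) and 27.4 CPM (1_7_IC, labelled wild type).

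*Nkx2-2*, *Sox8* and *Tppp* also had every PWS-IC library of the 7 below every wild-type library, which makes 4 members lower and 0 higher. Of all genes 5.46% were lower in this way and 4.86% higher. *Sox8*, a partner of *Sox10*, had 20.2, 28.2 and 26.6 CPM in PWS-IC and 32.7, 31.47, 30.6 and 29.6 CPM in the wild types (log2 fold change -0.33, SE 0.10). *Tppp* had 31.1, 35.4 and 33.4 CPM against 57.0, 42.2, 41.7 and 41.0 CPM (log2 fold change -0.42, SE 0.11), and *Nkx2-2*, the homeobox factor of committed precursors, 7.33, 6.53 and 6.65 CPM against 9.49, 9.03, 8.44 and 7.375 CPM (log2 fold change -0.29, SE 0.10). *Sox10* was at -0.44 (SE 0.14, edgeR adjusted p = 0.292).

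The myelin genes had wider errors in the same fit. *Mobp* was at -1.26 on the log2 scale (SE 0.60, edgeR adjusted p = 0.408), *Fa2h*, which hydroxylates the fatty acids of myelin lipids, -0.61 (SE 0.29) and *Mbp* -0.27 (SE 0.18). *Mog* was at 0.03 (SE 0.15) and *Mal* at 0.25 (SE 0.18).

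**Figure D3:**
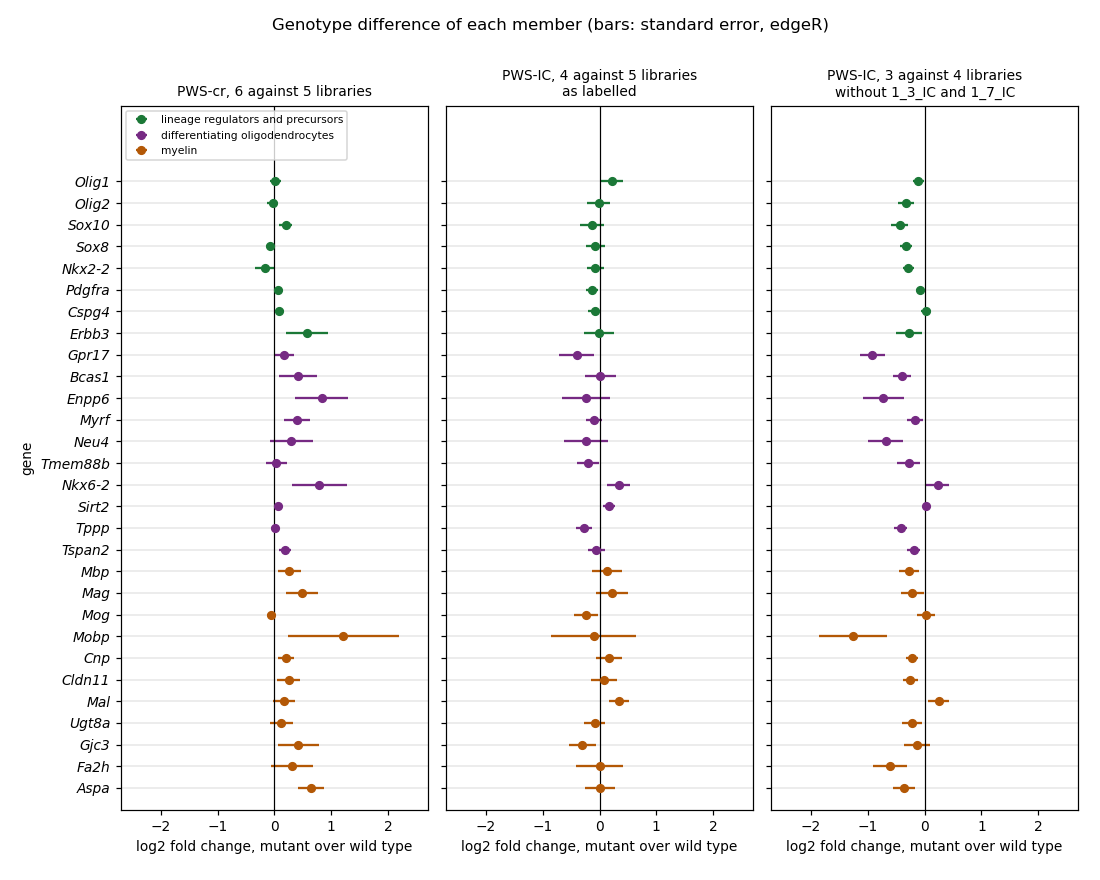
Log2 fold change of each tested member, mutant over wild type by label, with bars of 1 standard error, in the PWS-cr series and in the PWS-IC series with 9 and with 7 libraries; colours give the class. Most points lie right of 0 in PWS-cr (25 of 29), 11 of 29 do in the 9 PWS-IC libraries and 5 of 29 in the 7.

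Litter 4 of the PWS-IC series holds neither library in doubt. In it, 4 of 29 members were higher in the 2 PWS-IC than in the 2 wild-type libraries, with a median difference of -0.22 on the log2(CPM + 0.1) scale, and 0 of the 10 differentiating genes were. Among all genes 48.55% were higher in this litter. In litter 1 as labelled 19 of 29 members were higher in the PWS-IC libraries (median difference 0.13), and 6 of 29 were when 1_3_IC and 1_7_IC were left out (median difference -0.29, 1 against 2 libraries). Litter and sex were not balanced: all PWS-IC pups are labelled female, and of the wild types 1_1_IC alone is, the library that stood apart. With sex in the model of the 9 libraries 4 of 29 members were above 0 and 5 had an unadjusted p under 0.05. Of all 22367 genes 1296 had such a p, and none was called. The sex term used the labels, which *Xist* and *Eif2s3y* go against in 1_3_IC and 1_7_IC. In these labels sex, genotype and the library 1_1_IC cannot be told apart.

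The wild-type library 1_1_IC was high in most members. By CPM it lay above every other wild-type library of its series in 25 of 29 members and was the highest of all 9 in 11. The 25 were 8 of 10 differentiating, 7 of 8 precursor and 10 of 11 myelin genes. The median log2 ratio to the mean of the other wild types was 0.49 over the members, 0.22 for precursor, 0.57 for differentiating and 0.50 for myelin genes. *Enpp6* had 3.87 CPM in 1_1_IC and 0.93 to 1.64 CPM in the other wild types, *Ugt8a*, which makes the galactolipids of myelin, 10.04 and 5.66 to 6.61 CPM, and *Mag* 8.09 and 3.78 to 4.47 CPM. Other cell types moved with it: the mean log2 CPM of microglial genes was 3.78 in 1_1_IC and 4.06 in 1_3_IC against 3.02 to 3.47 in the other 7 libraries, that of astrocyte genes 6.58 and 6.56 against 5.78 to 6.25, and that of genes of dividing cells 4.13 and 4.18 against 3.74 to 3.92. Neuronal genes were by this mean also highest in 1_1_IC (8.94, against 8.75 to 8.88 in the other 8). By summed CPM they were not, with 6274 in 1_1_IC, 6795 in 1_3_IC and 6548 in 1_10_IC. The part of these cell types in the members' values was not tested. *Mog* went the other way, with 13.6 CPM in 1_1_IC and 19.4 to 23.3 CPM in the other wild types.

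Without 1_1_IC the sign of the 9-library comparison turned. Members above 0 were then 19 of 29, with a median of 0.09. Without 1_1_IC, 1_3_IC and 1_7_IC, which leaves 6 libraries, 5 of 29 were above 0 and the median was -0.12. Leaving out other single libraries moved the count as well, to 4 of 29 without 1_3_IC, to 6 without 1_7_IC and to 17 without 1_10_IC.

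The library 1_3_IC, labelled PWS-IC, was by CPM the highest of the 9 in 12 members and above the other 3 libraries of its label in 21 of 29. These ranks depended on the scale. Among these 12 members, the highest TPM of any library labelled PWS-IC was above the highest of any wild type in *Olig1*, *Sirt2*, *Mag*, *Cnp*, *Cldn11* and *Aspa*. It was below in *Mbp* (40.3 against 44.0 TPM), *Bcas1* (19.5 against 21.5 TPM), *Olig2*, *Sox8*, *Nkx2-2* and *Fa2h*. The pattern of 1_3_IC was not uniform. *Olig1* had 136.8 CPM there and 50.9 to 79.5 CPM in the others of its label, and *Cnp* 74.6 and 26.2 to 40.4 CPM, whereas *Pdgfra* (70.8 CPM), *Cspg4* (16.7 CPM), *Gjc3* (1.98 CPM) and *Mog* (9.75 CPM) were at their lowest of all 9 libraries.

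**Figure D4:**
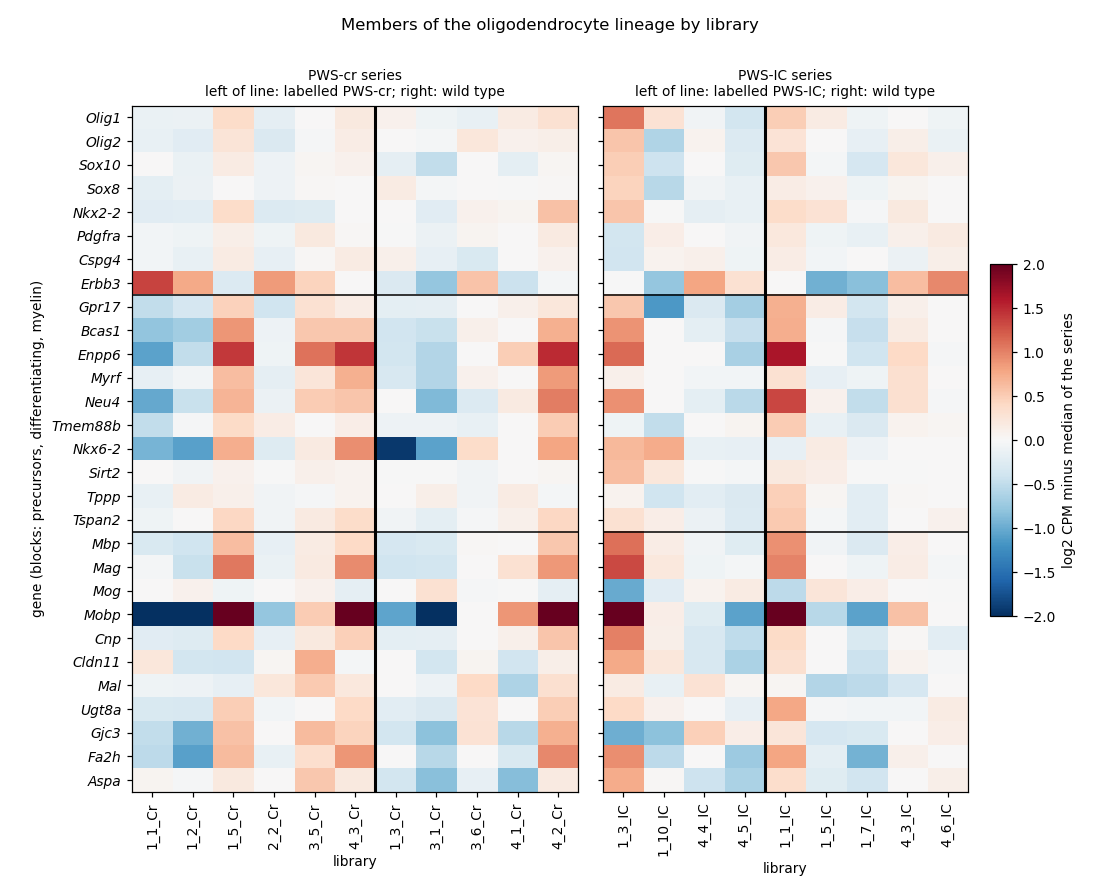
Log2 CPM of each tested member in each library minus its median over the libraries of that series, with values beyond 2 shown at the end of the scale; the black vertical line parts libraries labelled mutant (left) from wild type (right) and horizontal lines part the 3 classes. Columns mostly red are 1_5_Cr, 3_5_Cr, 4_3_Cr and 4_2_Cr in the PWS-cr series and 1_3_IC and 1_1_IC in the PWS-IC series, and *Mog* is lowest in 4_3_Cr and 1_3_IC.

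The difference between the genotype effects was fitted over all 20 libraries. No member differed between PWS-IC and PWS-cr at an adjusted p under 0.05, where 0.0% of 23771 genes did by edgeR, and none had an unadjusted p under 0.05, where 4.72% of all genes did. The difference was above 0 in 6 of 29 members, with a median of -0.23, against 52.6% of all genes. *Enpp6* had a difference of -1.05 (SE 0.69) and *Gpr17* of -0.55 (SE 0.39, edgeR adjusted p = 0.836).

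Without 1_3_IC and 1_7_IC the difference was above 0 in 2 of 29 members, with a median of -0.51, against 49.5% of 23574 genes. No member was called (0.182% of all genes were), and 6 had an unadjusted p under 0.05, against 8.16% of all genes. These were *Gpr17* (-1.09, SE 0.31, edgeR adjusted p = 0.410), *Sox10* (-0.64, SE 0.20), *Aspa* (-1.01, SE 0.33), *Tppp* (-0.42, SE 0.14), *Enpp6* (-1.56, SE 0.69) and *Tspan2* (-0.38, SE 0.18), all lower in PWS-IC relative to PWS-cr.

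Libraries of 1 series varied within a genotype, and most members shared this variation. The coefficient of variation over the 11 PWS-cr series libraries ran from 4.02% (*Sirt2*) to 110.7% (*Mobp*), with a median of 11.98% for precursor, 27.2% for differentiating and 26.3% for myelin genes. Over the 9 PWS-IC series libraries the medians were 20.7%, 23.9% and 32.1%. Pearson's r of log2 CPM with *Mbp* was above 0.5 in 21 of the other 28 members in the PWS-cr series and in 20 in the PWS-IC series. The share of all genes with such an r was not computed, so a trait particular to the lineage is not shown.

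*Bcas1* (r = 0.96 and 0.98), *Mag* (0.96 and 0.98), *Mobp* (0.91 and 0.98), *Enpp6* (0.95 and 0.94) and *Cnp* (0.97 and 0.93) followed *Mbp* closely in both series. *Mog* ran opposite in both, at r = -0.69 over 11 libraries and -0.95 over 9. It had its highest level in 3_1_Cr (23.6 CPM) and 1_5_IC (23.3 CPM), where *Mbp* had 44.7 and 50.4 CPM, and its lowest in 4_3_Cr (16.8 CPM) and 1_3_IC (9.75 CPM), where *Mbp* had 72.6 and 114.0 CPM. No other annotated gene shares exon bases with *Mog*, which lies on chromosome 17 from 37010743 to 37023398. These correlations describe libraries that share litters and a common scaling. In the PWS-IC series *Mbp* was far higher in 1_3_IC (114.0 CPM) and 1_1_IC (99.95 CPM) than in every other library. Both therefore weigh heavily in r there, and r with *Mbp* was not computed without them.

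*Erbb3* had little relation to *Mbp* (r = -0.28 and 0.05), as had *Tppp* in the PWS-cr series (r = 0.05), and *Gjc3*, a connexin that oligodendrocytes share with Schwann cells, followed *Mbp* in the PWS-cr series (r = 0.87) and not in the PWS-IC series (r = -0.34). The libraries were unstranded, so that reads of exon bases shared with another gene cannot be told apart by strand. Such bases numbered 652 in *Pdgfra*, 474 in *Bcas1*, 329 in *Sox8*, 278 in *Nkx2-2*, 246 in *Nkx6-2*, 188 in *Gpr17*, 157 in *Olig1*, 154 in *Cnp*, 88 in *Tspan2*, 79 in *Mobp* and 42 in *Sirt2*.

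The same variation ran with the caudal Hox genes. In the PWS-cr series the mean log2 CPM of the 10 differentiating genes had r = 0.93 (Spearman's rho 0.86) with that of the 12 caudal Hox genes over 11 libraries, the 11 myelin genes r = 0.91 (rho 0.80) and the 8 precursor genes r = 0.58 (rho 0.38). Without the 2 libraries farthest in Hox level r was 0.89, 0.87 and 0.66, and with litter means removed 0.92, 0.89 and 0.71 over the 10 libraries of litters with more than 1. The Hox level left a wide gap between libraries, and over the 6 above it r was 0.61, 0.55 and 0.18.

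In the PWS-IC series, for the differentiating, myelin and precursor genes in this order, r was 0.61 (rho 0.53), 0.75 (rho 0.77) and 0.60 (rho 0.47) over 9 libraries, 0.75, 0.78 and 0.43 without the 2 farthest libraries, 0.69, 0.80 and 0.60 with litter means removed, and 0.39, 0.57 and 0.33 over the 7 without 1_3_IC and 1_7_IC. Litters hold too few libraries for a value of their own. Members with r above 0.5 to the Hox level were 22 of 29 in the PWS-cr and 17 of 29 in the PWS-IC series. How many of all genes reach such an r was not computed, so these counts are not shown to be particular to the members. *Enpp6* (r = 0.94), *Mobp* (0.94) and *Bcas1* (0.94) were highest in PWS-cr, and *Mog* was negative in both series (-0.57 and -0.76). In the library 1_10_IC the Hox genes summed to 82.0 CPM, the second highest of the series, while *Gpr17* (15.9 CPM), *Sox10* (11.1 CPM), *Sox8* (20.2 CPM) and *Olig2* (20.3 CPM) were at their lowest of the 9.

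**Figure D5:**
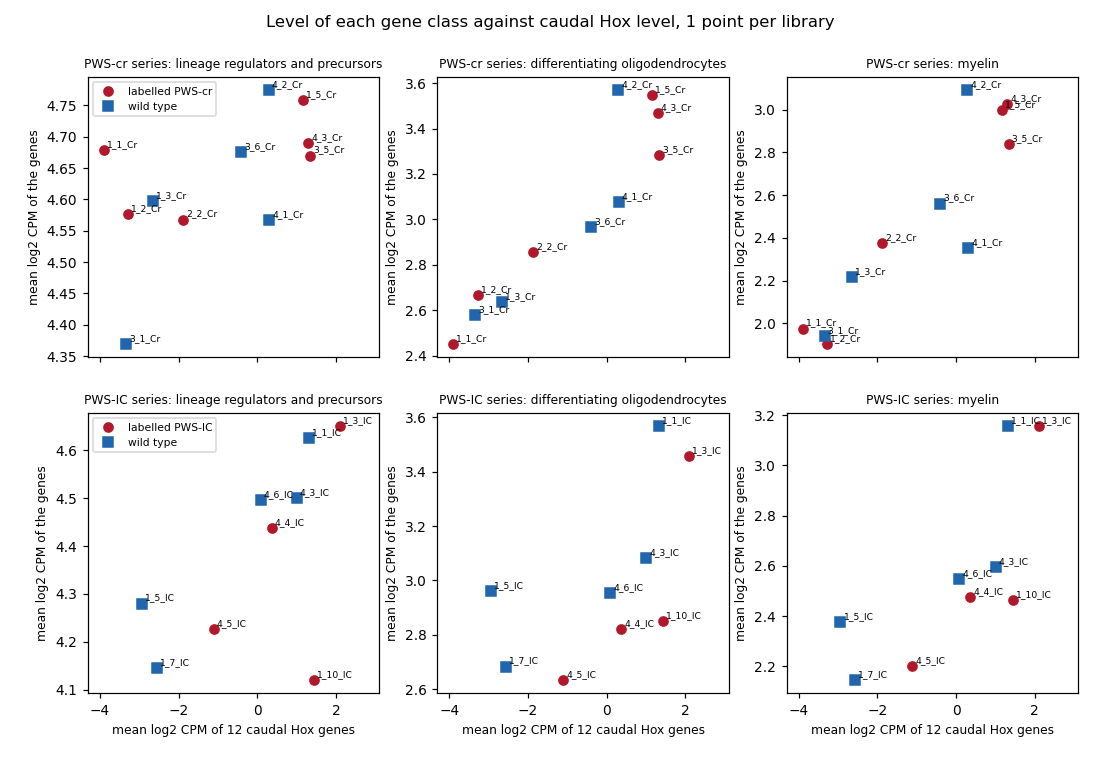
Mean log2 CPM of the precursor (8), differentiating (10) and myelin (11) genes against the mean log2 CPM of 12 caudal Hox genes, 1 point per library (red circles labelled mutant, blue squares wild type), PWS-cr series above and PWS-IC series below. The differentiating and myelin genes are higher where the Hox level is, in the PWS-cr series (r = 0.93 and 0.91), and 1_10_IC lies low for its Hox level.

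Other oligodendrocyte genes, a list of 26 outside the members, were counted in the same way. In PWS-cr 18 of 23 tested were above 0 (median 0.09) and none had an unadjusted p under 0.05. *Plekhb1* had the smallest p (log2 fold change 0.22, SE 0.10) and *Gal3st1*, the sulphotransferase of sulphatide, followed (0.29, SE 0.16). In the 9 PWS-IC libraries 14 of 23 were above 0 (median 0.06), and in the 7 libraries 8 of 23 (median -0.12), with 1 higher and 4 lower at an unadjusted p under 0.05. *Matn4* (-0.29, SE 0.12), *Plxnb3* (-0.38, SE 0.16) and *S1pr5* (-0.33, SE 0.15) were among the lower. Late genes of this list such as *Ninj2* and *Klk6* had 0 to 2 counts in the PWS-cr series.

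Signals and factors that steer the lineage, a list of 20, were split in direction in PWS-cr. There 10 of 20 were above 0 (median 0.00), and *Shh*, the ventral signal that induces *Olig2*, had the 1 unadjusted p under 0.05 (-0.37, SE 0.15). In the 9 PWS-IC libraries 6 of 19 were above 0 (median -0.09), with *Id2*, an inhibitor of differentiation, at 0.34 (SE 0.09, edgeR adjusted p = 0.565) and *St18* at -0.43 (SE 0.16). In the 7 libraries *Id2* was at 0.34 (SE 0.09), *Hes5*, a Notch target, at -0.35 (SE 0.10) and *Bmp4* at -0.67 (SE 0.20), none of them called.

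Markers of other cell types were measured beside the members. Of 8 Schwann cell genes 7 were tested, and 7 were above 0 in PWS-cr (median 0.23), 6 in the 9 PWS-IC libraries (median 0.20) and 5 in the 7 (median 0.06). *Pmp2* had 0 counts in 10 of the 11 PWS-cr series libraries. Astrocyte genes gave 7 of 8 above 0 in PWS-cr (median 0.17), 5 of 8 in the 9 PWS-IC libraries (median 0.03) and 2 of 8 in the 7 (median -0.30), where *Gja1* (-0.44, SE 0.08, edgeR adjusted p = 0.0722), *Gfap* (-0.76, SE 0.23) and *Aqp4* (-0.41, SE 0.15) had an unadjusted p under 0.05. The summed CPM of the 8 astrocyte genes ran from 865 to 1104 in PWS-cr and from 884 to 1151 in their wild types, and from 855 to 1076 and from 877 to 1254 in the PWS-IC series.

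The other lists cover brain regions and other cell types. In PWS-cr the medians were 1.29 for 6 hindbrain Hox genes, -0.04 for 8 forebrain genes, 0.04 for 8 neuronal genes, -0.13 for 8 genes of dividing cells (8 of 8 below 0), 0.07 for microglia, 0.11 for endothelium and 0.22 for meninges and fibroblasts. In the 7 PWS-IC libraries they were 0.08, 0.16, -0.03, -0.02, -0.12, 0.06 and -0.11 in the same order, and the caudal Hox genes, at a median of 0.82 in the 9 libraries, were at 0.07. In the 7 libraries 3 of 8 forebrain genes were higher at an unadjusted p under 0.05, with *Lhx2* at 0.23 (SE 0.06). Neuronal genes summed to 5499 to 6795 CPM over the 20 libraries and forebrain genes to 379 to 879 CPM, so that every library held both. The part of these tissues in the members' values was not tested.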

How the data were processed

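Whole-brain poly(A) RNA was sequenced as paired, unstranded libraries. Reads were mapped to mm10 with STAR and counted per gene with featureCounts, as the submitters' processing notes name them. The authors deposited raw counts and TPM, which allows for gene length; the tool behind the TPM is not given in the sources used here. The authors set aside 1 library per series after clustering. Libraries 2_1_Cr and 4_2_IC are labelled but were not analysed here. The deposited tables also hold size-factor-scaled counts and FPKM (40 per-sample columns) and the authors' own DESeq2 fold changes and p values, none of which was used.

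Counts were fitted with edgeR 4.0.16 (R 4.3.3, TMM scaling, glmQLFit and glmQLFTest), with litter and genotype, each series by itself. Genes entered if 4 or more libraries had 10 or more counts, and calls were made at an adjusted p (Benjamini-Hochberg) under 0.05. The SE is the log2 fold change over the square root of F. Log2 CPM used a prior count of 2. The difference between series was an interaction over all 20 libraries. The fits were tested on simulated data, with changes put into better expressed genes only. Recovery of 1.5-fold changes was 88% in the PWS-cr and 50% in the PWS-IC design, and that of 2-fold changes 98% in both. Of the unchanged genes 20 and 5 were called. These values hold for groups in which every library carries the genotype of its label. *Snrpn* went against the label in 1_3_IC (18116 counts) and 1_7_IC (343 counts). The fit of the 9 PWS-IC series libraries as labelled called 0 of 22367 genes. Recovery with such labels was not tested. Alternatives were DESeq2 1.42.0, RLE scaling, no filter, other covariates and left-out libraries. Separate pups are the replicates. Depth limits only the genes with few counts.

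Groups follow the labels, also for 1_3_IC and 1_7_IC. The members, lists, motifs and alternatives were chosen with earlier results of these data known. Named are all 30 members, of every other list up to 4 genes with the smallest p in a comparison, and *Snrpn*, *Xist*, *Eif2s3y* and *Hoxb8*. *Pmp2*, *Ninj2* and *Klk6* were named after their counts were seen. Promoters are RefSeq windows (first listed per gene) and positions are from GENCODE vM21. Some genes of the lists are not reported here.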

Additional observations from a re-analysis of the deposited data

Results flagged for a closer look

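Single libraries far from the rest of their labelled group were looked for in 116 groups of 4 to 6 libraries (29 members in 4 groups), by the gap to the nearest library over the whole range. There were 11. The cut is one that about 1 in 20 independent groups of normal values would pass. The members vary together over the same libraries, so the count cannot be set against that rate.

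Of these, 5 fell on the wild-type library 1_1_IC. It had 3.87 CPM of *Enpp6* (others 0.93 to 1.64), 99.95 CPM of *Mbp* (others 43.2 to 57.8), 8.09 CPM of *Mag* (others 3.78 to 4.47), 5.18 CPM of *Mobp* (others 0.39 to 1.31) and 10.04 CPM of *Ugt8a* (others 5.66 to 6.61). The library labelled PWS-IC 1_3_IC had 10.1 CPM of *Mag* (others 3.79 to 4.67) and 4.78 CPM of *Mobp* (others 0.39 to 0.94).

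In the PWS-cr series the wild type 4_2_Cr had 4.06 CPM of *Tmem88b* (others 2.54 to 2.83) and 1.71 CPM of *Fa2h* (others 0.58 to 0.86), the wild type 1_3_Cr had 37.2 CPM of *Sox8* (others 32.2 to 33.5), and the PWS-cr library 3_5_Cr had 2.57 CPM of *Aspa* (others 1.72 to 2.02).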

How the results depend on the processing

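No member was called under any alternative of any comparison. In PWS-cr the alternatives called 2 to 10 of all genes. In most alternatives of PWS-IC and of the difference no gene at all was called, so the absence of members there says nothing particular about them. In PWS-cr, 25 of 29 members lay above 0, and the count moved by over 1.5 times only with the caudal Hox level in the model (15). In PWS-IC, 11 of 29 lay above 0 in the 9 libraries, against 4 with sex in the model, 4 with the Hox level, 5 without 1_3_IC and 1_7_IC, 5 without these and 1_1_IC, and 4 to 19 when single libraries were left out. The median of -0.07 was -0.37 with sex, -0.27 in the 7 libraries and from -0.18 to 0.09 when single libraries were left out. For the difference, 6 of 29 lay above 0, against 10 without litter, 3 with sex and 2 without 1_3_IC and 1_7_IC. Of the 29 members, 16 turned sign under at least 1 alternative in PWS-cr, 22 in PWS-IC and 11 for the difference. Among the 9 genes followed singly (*Aspa*, *Enpp6*, *Mobp*, *Mag*, *Myrf*, *Gpr17*, *Tppp*, *Sox10* and *Mal*), *Mobp* in PWS-cr was at -0.90 with the Hox level, *Mal* in PWS-IC at -0.078 with sex, and *Sox10* in PWS-IC at 0.007 without 1_1_IC and 0.030 without 1_10_IC (-0.38 to 0.030 over all single libraries left out). The cause was not tested. Without the filter 11 of 30 members in PWS-cr had an unadjusted p under 0.05 in place of 1 of 29. Of all genes 1274 of 45478 had such a p, in place of 459 of 22172. Calls by the adjusted p were 10 of all genes in place of 3 (DESeq2 called 7). In PWS-IC the fit without the filter gave 3 members at that unadjusted p in place of 0, beside 3884 of all 42507 genes. It made 471 calls among all genes in place of 0 (DESeq2 called 1). For the difference it gave 9 members in place of 0, beside 2417 of all 47158 genes, and 87 calls in place of 0. No paired analysis was possible because pups share only a litter, which is in the model, and replicate numbers follow accession order.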
